A study of Danio rerio with 17 samples.

Results

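The *chodl* neurons described here were 369 of 42338 *elavl3*-expressing barcodes from the optic tectum of zebrafish larvae. A barcode stands for a single dissociated cell and a UMI for a single counted transcript. Members carried at least 2 *chodl* UMIs, at least 1 *elavl3* UMI and fewer than 2 *npy* UMIs, in barcodes limited to 600 to 4000 detected genes, to no more than 7500 UMIs and to a mitochondrial share of 10% or less. The other 41969 *elavl3* barcodes that passed the same filters were the comparators. The members were therefore selected by their *chodl* and *npy* counts, and the values of these genes are given only as descriptions.

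*chodl* encodes chondrolectin, a membrane protein with a C-type lectin domain that is known in zebrafish for its part in the outgrowth of motor axons. In the mouse cortex the same gene names a rare class of long-range inhibitory neurons that also contain somatostatin and nitric oxide synthase. The optic tectum is the main visual centre of the fish midbrain. Its inhibitory neurons make GABA with the enzymes encoded by *gad1b* and *gad2*, and the transcription factors of the Gata2, Gata3, Tal and Sox14 families are known to direct midbrain cells to a GABAergic fate.

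The tissue came from untreated wild-type larvae at 7 days post-fertilisation (dpf; 7 batches) and 6 dpf (4 batches). Each batch pooled the dissected tecta of many larvae with the attached torus longitudinalis, so that a batch was the replicate and single animals could not be told apart. Batch 8 is described as 7 dpf in its sample characteristics and as 6 dpf in a free-text line, and was kept at 7 dpf. Batches 1 to 8 and batches 10 to 12 were sequenced on different instruments.

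The deposited libraries held between 5073733 and 51995462 UMIs per lane in the 7 dpf batches and between 5551298 and 88294858 in the 6 dpf batches. A pair of lanes shared at most 107 barcodes, and at most 1.16% of the smaller lane. The *chodl* neurons were deeper than the comparators, with a median of 3295 UMIs and 1671 genes per barcode, against 2339 UMIs and 1247 genes. Their median mitochondrial share was 0.907%, against 1.19% in the other neurons. Because a threshold of 2 UMIs is met more easily in a deep barcode, the main results were also computed against the 5 comparators of the same batch nearest in UMI total to each member.

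*chodl* itself was a sparse marker. The median member carried 3 *chodl* UMIs and the highest 20. Just inside the threshold, 166 members (45.0%) had exactly 2 UMIs, and just outside it 1052 *elavl3* barcodes had exactly 1. A further 113 members (30.6%) had 5 or more. Summed over barcodes, *chodl* stood at 13.2 UMIs per 10000 in the members, 0.106 in the other neurons and 1.40 in the 443 neurons with at least 2 *npy* UMIs. In 198 barcodes that carried microglial markers and should lack the gene, 1 (0.505%) had a *chodl* UMI and 0 had 2. Any members were left out of these barcodes beforehand. The count of 0 was therefore largely set in advance, and no limit on background at 2 *chodl* UMIs is read from it. The filter on *npy* left out 39 barcodes with at least 2 UMIs of both genes.

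**Figure D1:**
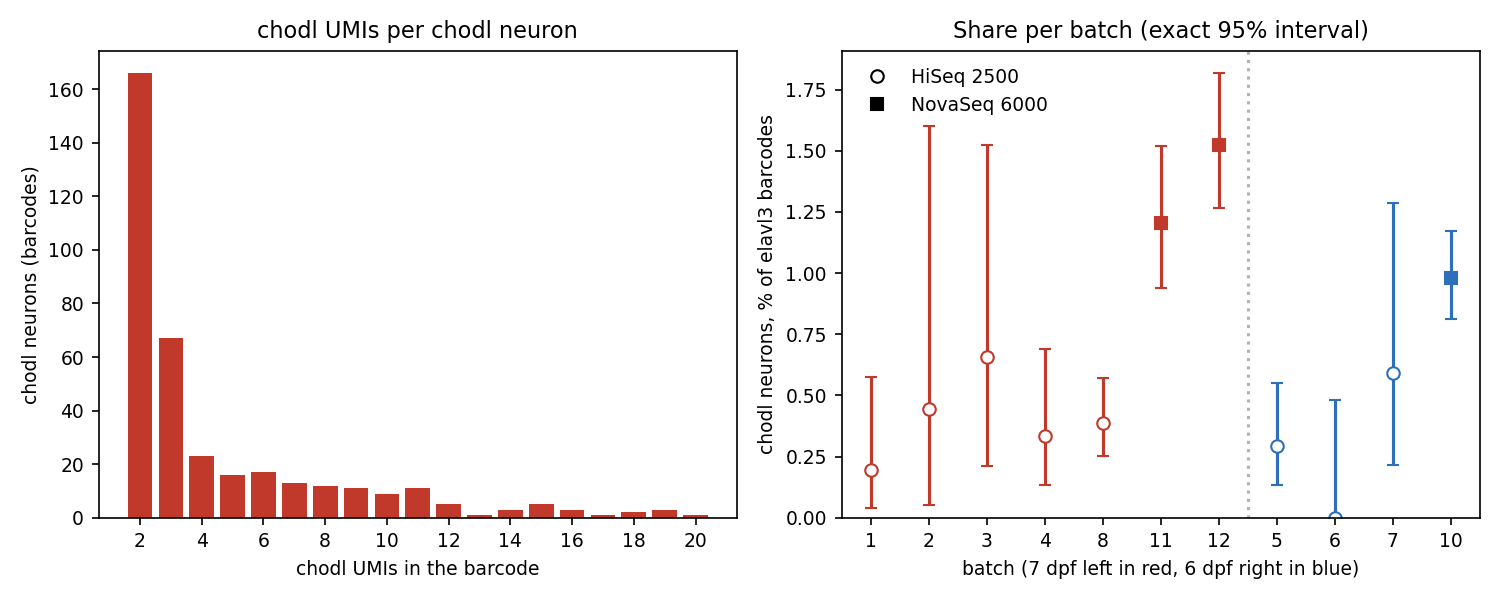
Left, number of *chodl* neurons (vertical axis) by *chodl* UMIs in the barcode (horizontal axis). Right, *chodl* neurons as a percentage of *elavl3* barcodes in each batch, 7 dpf in red and 6 dpf in blue, with exact 95% binomial intervals; open circles are HiSeq and filled squares NovaSeq batches, and the 3 NovaSeq batches, at 0.979 to 1.52%, lay above the 8 HiSeq batches.

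The share of *chodl* neurons did not separate the ages. Among *elavl3* barcodes it was 0.679 ± 0.497% at 7 dpf (SD, n = 7 batches), against 0.466 ± 0.419% at 6 dpf (n = 4), a difference of 0.213 percentage points with p = 0.494 in a two-sided exact permutation test. The lowest 7 dpf batch had 0.197%, the median 0.445% and the highest 1.52%, while the 6 dpf batches spanned 0 to 0.979%, so the ages overlapped. In batch 6, 0 of 763 barcodes were members, which allows a share of up to 0.393%. By sequencer, the shares were 0.979 to 1.52% in the NovaSeq batches and 0 to 0.655% in the HiSeq batches. With every barcode thinned to 1000 UMIs the sequencers overlapped, at 0.323 to 0.562% in the NovaSeq and 0 to 0.395% in the HiSeq batches. That overlap rested on batches 2 and 3, with 1 and 2 members left (0.370% and 0.395%). The other HiSeq batches were at 0.294% or less. Within the HiSeq batches alone the difference between ages was 0.110 points (p = 0.536, exact), and over all batches after the same thinning it was 0.168 points (p = 0.127, exact). These intervals and limits cover counting error only.

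Most members, but not all, carried transcripts of inhibitory neurons. A UMI of a GABA gene (*gad1b*, *gad2* or the vesicular GABA transporter *slc32a1*) without one of *slc17a6a* or *slc17a6b*, the vesicular glutamate transporters of excitatory neurons, was found in 57.7% of members, against 41.3% of the other neurons. Both kinds of transcript occurred in 16.0% of members, only *slc17a6* in 12.5%, and neither in 13.8%. In the nearest-depth comparators the GABA-only share was 44.5%. The shares moved with the *chodl* count. Among members with 5 or more *chodl* UMIs, 80.5% were GABA-only and 3.54% *slc17a6*-only. Among members with exactly 2, the shares were 39.2% and 20.5%, close to the 44.5% and 20.4% of the nearest-depth comparators. Transmitter genes thus fitted the label "inhibitory" in members rich in *chodl*, and in those at the threshold were close to the background of neurons of like depth. The group is called *chodl* neurons here for that reason. These shares describe barcodes and were not tested.

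**Figure D2:**
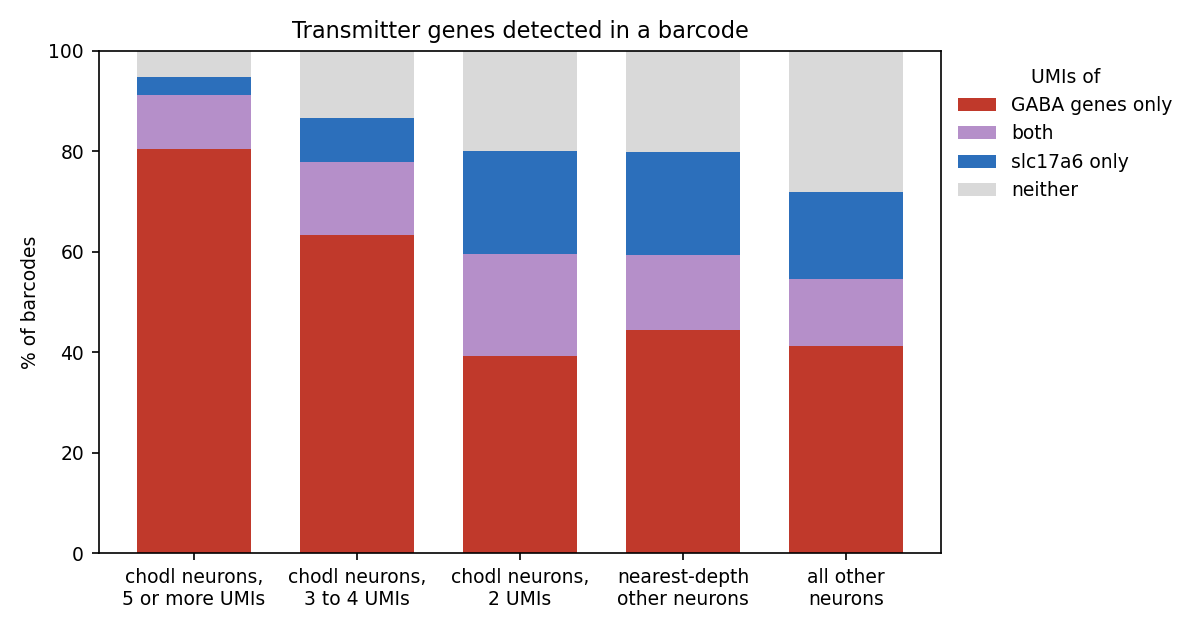
Percentage of barcodes (vertical axis) with UMIs of GABA genes only (*gad1b*, *gad2* or *slc32a1*), of both these and *slc17a6a* or *slc17a6b*, of *slc17a6a* or *slc17a6b* only, or of neither, in *chodl* neurons split by *chodl* UMIs and in the other neurons. The GABA-only share was 80.5% at 5 or more *chodl* UMIs and 39.2% at exactly 2, against 44.5% in the nearest-depth other neurons.

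The same order held for the *gad* genes, *lhx1a* and *cdh24b* across counts of 0, 1, 2, 3 to 4, 5 to 9 and 10 or more *chodl* UMIs. Depth was not held fixed, with medians of 2321, 2803.5, 3155.5, 2484, 3299 and 4284.5 UMIs per barcode. A UMI of *gad1b* or *gad2* was present in 45.5%, 46.0%, 48.8%, 70.0%, 81.2% and 90.9% of these barcodes, all with fewer than 2 *npy* UMIs. *lhx1a*, a LIM homeodomain factor of inhibitory lineages, was present in 16.2%, 24.5%, 28.9%, 53.3%, 69.6% and 79.5%. *cdh24b*, a type II cadherin that mediates adhesion between cells, was present in 16.8%, 24.2%, 29.5%, 47.8%, 69.6% and 88.6%. For each gene the largest step lay above 2 *chodl* UMIs. In the microglia-like barcodes, at a median of 3406 UMIs, 4.55% had an *lhx1a* and 6.06% a *cdh24b* UMI.

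Transmitter genes were tested with depth held fixed, by thinning each barcode to 1000 UMIs in the 4 batches with at least 10 members left. *gad2* was detected in 39.0 ± 8.56% of *chodl* neurons, against 21.4 ± 4.13% of other neurons (SD, n = 4 batches), and was higher in 4 of 4 batches. *gad1b* was detected in 28.1 ± 8.06%, against 18.8 ± 3.19%, again higher in 4 of 4. *slc32a1*, the vesicular GABA transporter, was detected in 33.5 ± 14.4%, which was 14.4 percentage points above the other neurons. The microglia-like barcodes, where these transcripts should be absent, had 6.12%, 4.59% and 7.65% for the same genes. *slc17a6b* was detected in 8.11 ± 3.01% of *chodl* neurons and 10.9 ± 1.39% of other neurons, and was lower in 3 of 4 batches. With 4 batches a two-sided exact sign-flip permutation test cannot go below p = 0.125. That was the value for *gad2*, *gad1b* and *slc32a1* (adjusted p = 0.319 over 23 genes). A choice made after the data were seen was to take the 7 batches with at least 5 members left after thinning. There *gad1b* and *slc32a1* were higher in 7 of 7 batches (p = 0.016, adjusted p = 0.051, exact). In both sets the adjusted values imply that further genes of the list had the same p value. These p values were therefore not particular to the GABA genes named.

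Whole-transcriptome differences were measured on UMIs summed over the *chodl* neurons and over the other neurons of each batch, in the 4 batches with at least 10 members (8, 10, 11 and 12; 337 members). Levels are given as UMIs per 10000 of the summed pool in that order, and fold changes are *chodl* neurons over other neurons from edgeR's quasi-likelihood test with batch as a block. At an adjusted p under 0.05, 131 of 17565 genes (0.746%) were higher in *chodl* neurons and 259 (1.47%) were lower, 2.22% in all. The median log2 fold change over all genes was -0.12, so changes are to be read relative to that shift. DESeq2 called 105 higher and 59 lower, which turned the split round. Of the 92 genes named in this comparison, 42 kept their call without each of the 4 batches in turn and 36 also kept it with DESeq2. Against the nearest-depth comparators only 66 of the 92 were tested, of which 49 kept their call and 17 lost it.

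Among 34 tested transcription factors of midbrain GABAergic development, 7 rose, 1 fell and the list median was 0.04, against -0.12 for all genes. *lhx1a* had 16.4, 4.17, 4.17 and 4.22 UMIs per 10000 in *chodl* neurons, against 2.64, 1.06, 1.17 and 1.21 in the other neurons. The groups did not overlap within any batch, and batch 8 was high in both. The log2 fold change was 1.84 ± 0.19 (SE; adjusted p = 9.02e-19, edgeR). *bcl11ba*, a zinc-finger factor of postmitotic neurons, had 26.9, 13.8, 29.9 and 28.2 in *chodl* neurons and 3.99, 6.27, 9.91 and 9.09 in the others (1.54 ± 0.22; adjusted p = 7.06e-10). Every *chodl* pool exceeded every other pool.

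*sox14*, a factor of GABAergic midbrain and diencephalic neurons, had 2.67, 1.12, 2.25 and 1.34 UMIs per 10000 in *chodl* neurons, against 0.586, 0.580, 0.760 and 0.580 in the others (1.23 ± 0.20 on the log2 scale). *gata3* had 2.26, 2.46, 3.40 and 2.63, against 1.21, 1.03, 1.55 and 1.27 (0.97 ± 0.19). *gata2a* had 5.33, 1.87, 3.36 and 2.07, against 1.34, 1.21, 1.44 and 0.944 (0.99 ± 0.19). For all 3 genes the lowest *chodl* pool lay above the highest pool of other neurons, and the adjusted p values were between 3.65e-07 and 6.56e-05 (edgeR). *foxp2*, a forkhead factor, rose by 0.91 ± 0.20 and was called in the full set (adjusted p = 0.000516). Its adjusted p was 0.058 without batch 11 and 0.135 without batch 12. *otx1* passed the test but was higher in only 2 of 4 batches, and lost its call with DESeq2 (adjusted p = 0.957). *tal1*, which acts with Gata factors in midbrain GABAergic neurons, did not pass (-0.36 ± 0.20, adjusted p = 0.581).

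**Figure D3:**
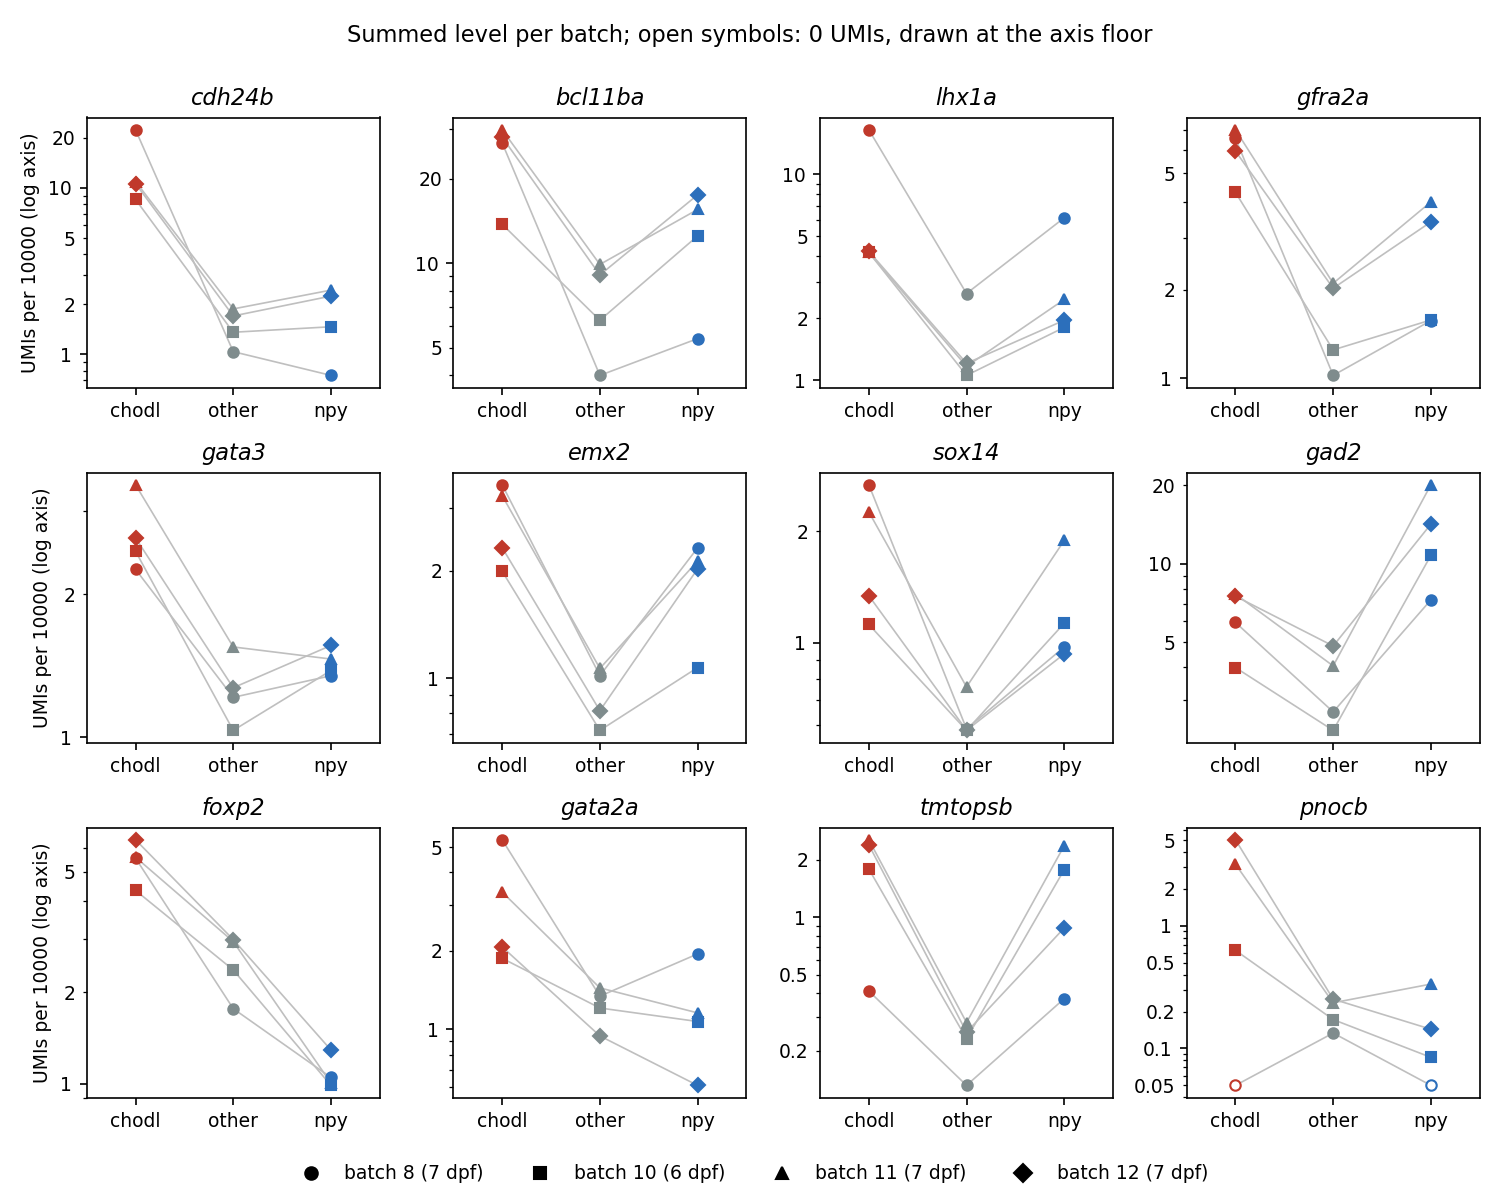
Summed level of 12 genes in each of 4 batches, as UMIs per 10000 on a log axis, in *chodl* neurons (red), other *elavl3* neurons (grey) and *npy* neurons (blue); lines join the pools of a batch. The *chodl* pools lay above the other-neuron pool of the same batch for each gene except *pnocb* in batch 8, where 0 UMIs were counted, while *gad2* was highest in *npy* neurons.

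*emx2*, a homeobox gene known for forebrain patterning, was on the list of 32 glutamatergic factors and was its single member to rise. It had 3.49, 2.00, 3.25 and 2.32 UMIs per 10000 in *chodl* neurons and 1.02, 0.715, 1.07 and 0.812 in the other neurons (1.41 ± 0.19; adjusted p = 2.13e-11). Its pools did not overlap. Of the same list 9 members fell and the median was -0.58. *sp5l*, a zinc-finger target of Wnt signalling, fell by 2.11 ± 0.39 on the log2 scale and kept its call without each batch in turn. *neurod2* fell by 3.42 ± 0.75 and *nr5a2*, a nuclear receptor, by 1.86 ± 0.39, at no more than 0.222 UMIs per 10000 in any *chodl* pool. The call of *neurod2* was lost without batch 12 (adjusted p = 0.0541) and with DESeq2 (0.0697), and that of *nr5a2* without batch 10 (0.0958). *dmbx1a*, a midbrain homeobox gene placed on the GABAergic list, had 0, 0.0407, 0.148 and 0.101 in *chodl* neurons against 0.678, 0.465, 0.651 and 0.466 in the others, and fell by 2.74 ± 0.40. *atf5b*, *barhl1a*, *barhl2*, *lhx9* and *pou4f2* were called lower by edgeR, not by DESeq2 and not in at least 1 of the sets without a batch. *tfap2a* was called by DESeq2 and not without batch 11.

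Among the genes with the largest increases, *cdh24b* had 22.4, 8.53, 10.9 and 10.6 UMIs per 10000 in *chodl* neurons, against 1.04, 1.36, 1.88 and 1.70 in the other neurons. Every *chodl* pool was above every other pool by a wide margin, and the log2 fold change was 2.81 ± 0.20 (adjusted p = 5.44e-39, edgeR). *abcc13*, an ABC-transporter family member, had 0.205, 0.733, 1.74 and 1.54, against 0.0468, 0.128, 0.146 and 0.134 (3.1 ± 0.25). *gfra2a*, a receptor subunit for GDNF-family growth factors, had 6.57, 4.30, 7.02 and 5.94, against 1.02, 1.25, 2.11 and 2.03 (1.69 ± 0.19). *nxph2b*, a secreted neurexophilin that binds neurexins, had 5.74, 1.24, 1.40 and 1.47, against 0.494, 0.367, 0.499 and 0.628 (1.70 ± 0.20). All 4 genes kept their call without each batch and with DESeq2.

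*tmtopsb*, a teleost multiple-tissue opsin and thus a light-sensitive receptor gene, had 0.410, 1.79, 2.55 and 2.40 UMIs per 10000 in *chodl* neurons and 0.131, 0.231, 0.280 and 0.249 in the other neurons (2.96 ± 0.21; adjusted p = 5.19e-42). A *tmtopsb* UMI was found in 18.4% of members, 3.53% of the other neurons and 2.02% of the microglia-like barcodes. It was not called higher than in the *npy* neurons that are compared below. *rasd1*, a small GTPase of the Ras family, rose by 2.31 ± 0.24, *sntg1*, a syntrophin scaffold gene, by 2.33 ± 0.23, and *dchs1a*, a large cadherin of planar cell polarity, by 1.92 ± 0.25. The *dchs1a* call was lost without batch 12 (adjusted p = 0.0759). *etv1*, an ETS factor, had 1.23, 2.24, 4.17 and 7.40, against 0.518, 1.11, 1.22 and 0.955 (1.75 ± 0.20). Also among the 15 largest increases were *gramd1bb*, *coro2bb*, *si:dkey-1c11.1* and genes named only by the identifiers CR846082.1 and ENSDARG00000108781.

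Of 52 tested genes of synaptic and axonal adhesion 7 rose and 3 fell, with a list median of -0.13, near that of all genes. Besides *cdh24b* and *nxph2b*, those that rose were *pcdh11* and its second annotated copy, *nrxn1b*, *cntn5* and *sdc2*. The 2 *pcdh11* entries carry the same symbol, so reads could have been split between them and their values are uncertain. Of 50 axon guidance genes 2 rose and 1 fell. Of 35 glutamate receptor genes 2 rose and 1 fell. *grm2a*, a presynaptic metabotropic receptor, rose by 1.85 ± 0.24. *GRIK2*, a kainate receptor subunit, rose by 1.04 ± 0.21 but had an adjusted p of 0.0812 without batch 11 and 0.234 without batch 12.

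Of 22 tested peptide genes 2 rose, both encoding prepronociceptin, and 8 fell, with a median of -1.33. *pnocb* had 0, 0.631, 3.18 and 5.03 UMIs per 10000 in *chodl* neurons, against 0.134, 0.172, 0.236 and 0.252 in the other neurons. It was higher in the 3 NovaSeq batches and lower in batch 8. In the HiSeq batches 2, 3, 4 and 7, which had too few members for the fit, 1 of 2, 3 of 5, 3 of 7 and 1 of 6 members had a *pnocb* UMI. The log2 fold change was 3.22 ± 0.22 (adjusted p = 3.15e-45, edgeR), but with DESeq2 it was not called (2.52, adjusted p = 0.308). *pnoca*, the second gene for the same precursor, had 0, 0.570, 1.07 and 1.47, against 0.118, 0.205, 0.247 and 0.325. It rose by 1.79 ± 0.25 and was called by both tools (adjusted p = 2.91e-10 with edgeR and 0.0026 with DESeq2). A *pnocb* UMI was present in 12.7% of members, 3.16% of other neurons and 3.54% of microglia-like barcodes.

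The peptide genes that fell were *npb*, *uts1*, *cart2*, *crhb*, *cort*, *penkb*, *cckb* and *adcyap1b*, which encode neuropeptide B, urotensin 1, a CART peptide, corticotropin-releasing hormone, cortistatin, a proenkephalin, a cholecystokinin and PACAP. *npb* had 0, 0.0204, 0.0369 and 0.0253 UMIs per 10000 in *chodl* neurons, against 0.217, 0.157, 0.211 and 0.213 in the others, and fell by 3.02 ± 0.66 on the log2 scale. It kept its call without each batch but not with DESeq2. The calls of *cart2*, *cort*, *penkb* and *cckb* were lost with DESeq2 and without at least 1 batch. Those of *uts1* and *crhb*, for which DESeq2 gave no adjusted p, were lost without at least 2 batches, and that of *adcyap1b* without batch 10 or batch 12 (adjusted p = 0.0529 and 0.121). Their levels were at most 0.821 UMIs per 10000 in any *chodl* pool except for *adcyap1b*, which ranged from 0.916 to 1.22.

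A cholinergic set was higher in summed *chodl* neurons, unevenly across batches. *chata*, the enzyme that makes acetylcholine, had 0, 0.590, 0.776 and 2.43 UMIs per 10000 in *chodl* neurons and 0.242, 0.219, 0.277 and 0.248 in the other neurons. The vesicular transporter *slc18a3a* and the choline transporter *slc5a7a* followed the same order over batches. The fold changes were 1.96 ± 0.24 for *chata*, 2.28 ± 0.43 for *slc18a3a* and 1.91 ± 0.31 for *slc5a7a* on the log2 scale. None of the 3 was called by DESeq2 (adjusted p = 0.894, 0.0575 and 0.0911) or without batch 12 (0.0914, 0.533 and 0.322). At least 2 *chata* UMIs were found in 21 members, or 5.69%, against 0.736% of the other neurons. With *gad2* these made 4 of 22 tested transmitter genes that rose with edgeR, and 0 fell, while at an unadjusted p under 0.05, 3 were lower. DESeq2 called 1, *gad2*.

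*gad2* had 5.95, 3.99, 7.65 and 7.50 UMIs per 10000 in *chodl* neurons, against 2.70, 2.29, 4.05 and 4.83 in the other neurons. It was higher in 4 of 4 batches by 0.67 ± 0.20 on the log2 scale (adjusted p = 0.0365 with edgeR and 0.000545 with DESeq2). The call was lost without batch 10 (adjusted p = 0.131), batch 11 (0.493) or batch 12 (0.404), at much the same fold change of 0.59 to 0.70. In members with at least 3 *chodl* UMIs the change was 1.11. *gad1b* and *slc32a1* did not pass over all genes (0.39 ± 0.20 and 0.48 ± 0.19), nor did *slc17a6b* (-0.42 ± 0.21).

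Of 12 tested orthologues of genes that mark the mouse *Chodl* neurons, 8 had a positive fold change, with a list median of 0.09 against -0.12 for all genes. With edgeR 1 passed upward and 1 downward (*cort*), and DESeq2 called 0. At an unadjusted p under 0.05, 2 were higher and 1 lower. *nos1*, the neuronal nitric oxide synthase, had 0, 0.550, 0.739 and 0.556 UMIs per 10000 in *chodl* neurons and 0.324, 0.471, 0.518 and 0.572 in the others (0.07 ± 0.25, adjusted p = 0.979). *tac1*, a tachykinin gene, did not pass either (0.59 ± 0.77). The call upward was *crhbp*, the binding protein of corticotropin-releasing hormone, at 0, 0.0204, 3.58 and 0.0505, against 0.123, 0.159, 0.266 and 0.382. It rested on batch 11, and without that batch the change was -3.04.

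Several lists of genes of other cell types had lower sums in the *chodl* pools. With edgeR all 6 tested erythrocyte genes fell (median -2.14), with summed levels of 0.406 to 1.69 UMIs per 10000 in *chodl* neurons, against 0.953 to 7.36 in the other neurons. Of 6 tested radial glia genes 4 fell, with sums of 4.36 to 8.00 against 5.96 to 36.2. *s100b*, a gene of that list, was at 0 in all 4 *chodl* pools. Of 14 progenitor genes 5 fell, with sums of 1.79 to 5.33 against 3.06 to 12.9. Of 5 microglial genes 2 fell, with sums of 0.410 to 1.88 against 2.18 to 2.79. *c1qa* was at 0 in each *chodl* pool and also in the other neurons of batch 8. A level of 0 in these small pools is no evidence of absence. DESeq2 called fewer of these genes lower, with 1 erythrocyte, 2 radial glia, 0 progenitor and 1 microglial gene. At low levels, the oligodendrocyte lineage sums were lower in each of the 4 batches too (0.148 to 0.354, against 0.326 to 0.792). So were the endothelium sums (0 to 0.489, against 0.367 to 0.656). In each of these 2 lists 1 of 4 tested genes fell with edgeR and 0 with DESeq2. The lens, habenula and epidermis lists did not share this direction in every batch. The lens sum was higher in the *chodl* pools of batches 10, 11 and 12 (0.0204, 0.0369 and 0.0505 UMIs per 10000, against 0.00939, 0.00729 and 0.0164). The habenula sum was higher in batches 10 and 11 (0.0814 and 0.111, against 0.0494 and 0.0463), and the epidermis sum in batch 8 (0.616, against 0.570). These lens, habenula and epidermis sums rest on very few UMIs in each *chodl* pool, so no direction is read from them. None of the tested lens, habenula and epidermis genes was called by either tool, and 1 epidermis gene was lower at an unadjusted p under 0.05 in the edgeR fit. The highest sums of radial glia and progenitor genes in other neurons were those of batch 8. The part of these transcripts in the lower calls was not tested.

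Such genes were also among the largest decreases. *fabp7a*, a fatty acid binding protein of radial glia, and *ptgdsb.1*, a prostaglandin D synthase gene, fell by 1.34 ± 0.25 and 1.72 ± 0.28 on the log2 scale. *id1*, an inhibitor of neuronal differentiation factors, had 1.03, 0.448, 0.185 and 0.430 UMIs per 10000 in *chodl* neurons, against 5.21, 1.09, 0.588 and 1.03 in the others (-1.71 ± 0.25). *fgfbp3*, a carrier of fibroblast growth factors, fell by 2.62 ± 0.32 but not with DESeq2. *pcbp3*, an RNA-binding protein gene, had 0.205, 0.387, 0.259 and 0.379, against 0.857, 0.806, 1.46 and 1.22 (-1.75 ± 0.26), and *satb1b*, a chromatin organiser, had 0.616, 0.550, 1.85 and 1.11, against 1.06, 2.13, 3.30 and 2.43 (-1.33 ± 0.22). *cxcl14*, a chemokine, *tp53i11b*, *apoc1* and *zgc:171482* completed the 10 largest. *fabp7a* and *apoc1* were not called against the nearest-depth comparators.

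To narrow the transmitter class, the members with a *gad1b* or *gad2* UMI (240 over all batches) were set against the other neurons with one (19258). The fit took batches 8, 10, 11 and 12, with 17, 70, 45 and 87 such members and 3374, 5194, 2848 and 4208 comparators. A single UMI does not fix the class, since 14.6% of microglia-like barcodes had a *gad1b* and 13.6% a *gad2* UMI. In this comparison 137 of 15169 genes (0.903%) were higher and 266 (1.75%) lower, 2.66% in all, and DESeq2 called 107 higher and 87 lower. The genes with the largest increases over all neurons were again called. *cdh24b* had 26.7, 11.3, 15 and 13.3 UMIs per 10000 in GABAergic *chodl* neurons, against 1.34, 1.66, 2.2 and 1.87 in other GABAergic neurons (2.92 ± 0.23). *bcl11ba* rose by 1.90 ± 0.24, *lhx1a* by 1.63 ± 0.21 and *emx2* by 1.28 ± 0.21, each called without every batch in turn. *sox14* rose by 1.09 ± 0.22, with its call lost without batch 11 (adjusted p = 0.0616).

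Further genes were called among the GABAergic barcodes. *sdc2*, a syndecan of the cell surface, had 3.46, 1.73, 2.01 and 2.26 UMIs per 10000 in GABAergic *chodl* neurons, against 0.505, 0.427, 0.706 and 0.817 in other GABAergic neurons (1.68 ± 0.22). *pnoca* rose by 1.91 ± 0.26. *tfap2a*, an AP-2 factor, fell by 1.78 ± 0.29, *penkb* by 2.81 ± 0.51 and *tkta*, a transketolase gene, by 2.62 ± 0.43 on the log2 scale, each kept without every batch. The cholinergic genes were not called, and of 17 tested transmitter genes 0 rose and 0 fell with edgeR or with DESeq2. At an unadjusted p under 0.05 in the edgeR fit, 1 was higher and 2 were lower. *caln1*, a neuronal calcium-binding protein gene, fell by 2.2 ± 0.37 on the log2 scale.

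The *npy* neurons, the 443 barcodes with at least 2 UMIs of neuropeptide Y, were compared next. Of these, 69 carried a *chodl* UMI and 39 at least 2. The fit took the 58, 98, 74 and 154 *npy* neurons of batches 8, 10, 11 and 12. Against them 155 of 5630 genes (2.75%) were higher in *chodl* neurons and 241 (4.28%) were lower, 7.03% in all. The median log2 fold change over all genes was 0.00. Of the 66 genes named, 31 kept their call without each batch and also with DESeq2. *foxp2* had 5.54, 4.34, 5.58 and 6.37 UMIs per 10000 in *chodl* neurons, against 1.05, 0.987, 1.00 and 1.29 in *npy* neurons (2.28 ± 0.20; adjusted p = 1.03e-06). *ptprk*, a receptor tyrosine phosphatase of cell contacts, had 2.46, 2.26, 2.55 and 2.40, against 0.150, 0.367, 0.518 and 0.377 (2.63 ± 0.26). Neither gene overlapped between the groups.

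*gata2a* rose by 1.34 ± 0.22 and *lhx1a* by 1.07 ± 0.18 relative to *npy* neurons, both kept without each batch. *cdh24b* rose by 2.67 ± 0.26 and *pcdh11* by 1.97 ± 0.18. *robo1*, a receptor for Slit guidance cues, had 5.95, 10.4, 6.21 and 8.21 UMIs per 10000 in *chodl* neurons and 2.40, 1.47, 1.64 and 2.42 in *npy* neurons (1.98 ± 0.23). The second annotated copy of *ebf3a*, an Ebf factor gene, had 40.6, 31.5, 44.1 and 42.8, against 8.31, 8.52, 4.72 and 10.4 (2.30 ± 0.20). Since 2 entries share that symbol, reads could have been split between them. Of 45 adhesion genes 10 rose and 4 fell, and of 36 guidance genes 6 rose and 1 fell. Of 17 tested glutamatergic factors 7 rose and 0 fell relative to *npy* neurons with edgeR, with a median of 0.69. DESeq2 called 2 higher and 0 lower. Among those that rose, *ebf1b* and *ebf3a* changed sign in members with at least 5 *chodl* UMIs. The part of members with exactly 2 *chodl* UMIs in these calls was not tested. *tmtopsb*, *GRIK2*, *emx2* and *sox14*, which were called higher against all other neurons, were not called higher than in *npy* neurons with edgeR.

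Several genes were lower in *chodl* neurons than in *npy* neurons. *gad2* had 5.95, 3.99, 7.65 and 7.50 UMIs per 10000, against 7.26, 10.8, 20.1 and 14.2 in *npy* neurons, and fell by 1.12 ± 0.18 on the log2 scale. That call was lost in members with at least 3 *chodl* UMIs (adjusted p = 0.110). *dmbx1a* fell by 3.24 ± 0.42 and *pax7b*, a paired-box factor of the dorsal midbrain, by 1.03 ± 0.22, with no call of *pax7b* in members with at least 3 *chodl* UMIs (adjusted p = 0.0603). *tal1* had 3.49, 2.52, 3.33 and 2.37, against 15.5, 5.11, 3.56 and 4.16, with a call that was lost without batch 10 or batch 12 and in members with at least 3 *chodl* UMIs. *scg2b*, a secretogranin of dense-core vesicles, had 1.44, 0.652, 1.37 and 1.34, against 8.09, 2.74, 4.96 and 3.46 (-1.88 ± 0.22), and *vgf*, another granule protein gene, fell by 1.28 ± 0.21.

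Immediate early genes were also lower. The study left such genes out of its own analysis because tissue dissection and cell dissociation induced them. A link of these values to neuronal activity in the larvae was not tested. Of 32 tested immediate early genes 0 rose and 11 fell relative to *npy* neurons with edgeR and 8 fell with DESeq2, with a median of -0.52 against 0.00 for all genes. *egr1*, a zinc-finger factor induced by neuronal activity, had 0.410, 0.896, 2.40 and 1.36 UMIs per 10000 in *chodl* neurons, against 1.80, 3.55, 5.27 and 3.03 in *npy* neurons (-1.45 ± 0.22; adjusted p = 0.000306). *dusp5*, a phosphatase of the ERK pathway, fell by 3.14 ± 0.41, and *fosb* by 1.25 ± 0.21. The *fosb* call was lost in members with at least 3 *chodl* UMIs (adjusted p = 0.0552). Against all other neurons, 0 of 40 rose and 3 fell with edgeR, and 2 were higher and 8 lower at an unadjusted p under 0.05. DESeq2 called 0 higher and 1 lower. Of the calretinin genes, *calb2b* fell by 2.26 ± 0.28 and *calb2a* rose by 1.18 ± 0.22 relative to *npy* neurons.

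Within the *chodl* neurons, 2 patterns of co-expression were seen. The study's marker lists for its inhibitory transcriptomic types i31 and i26 both contain *chodl*. These lists were drawn up on the same samples, so they carry no independent evidence. Leaving out *chodl*, *npy* and *mpped1*, the number of detected genes was tallied per barcode over 28 i31 genes and 27 i26 genes. Limits of 10 i31 genes and 13 i26 genes were chosen after the tallies had been seen, and the classes below are ranges of a tally and not cell types. No test was made between them.

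By these limits 111 members (30.1%) were rich in i31 genes, 46 (12.5%) in i26 genes, 7 (1.90%) in both and 205 (55.6%) in neither. The study names *npy* as a marker of i26, and barcodes with at least 2 *npy* UMIs were not members. Of the 39 barcodes with at least 2 UMIs of both genes that were so left out, 31 were i26-rich and 0 i31-rich. The share of i26-rich members is therefore partly set by that filter. Of the other neurons 4.05% were i31-rich and 0.398% i26-rich, and of the nearest-depth comparators 6.50% and 0.759%. Within 1 gene of the limit lay 29 members for i31 and 19 for i26. The i31-rich members had a median of 18 i31 genes and 5 i26 genes, and the i26-rich members 6 and 16. The *neither* class carried a median of 2 *chodl* UMIs. Of the 113 members with 5 or more *chodl* UMIs, 53.1% were i31-rich, 24.8% i26-rich and 18.6% neither, while of the 166 with exactly 2, 80.7% were neither. Batch 8 had 21 i31-rich and 0 i26-rich members, and batches 10, 11 and 12 had 26, 20 and 39 i31-rich and 11, 10 and 20 i26-rich members. Batches 3 and 4 had 2 and 3 i26-rich and 0 i31-rich members, and batch 5 had 5 i31-rich and 0 i26-rich members.

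**Figure D4:**
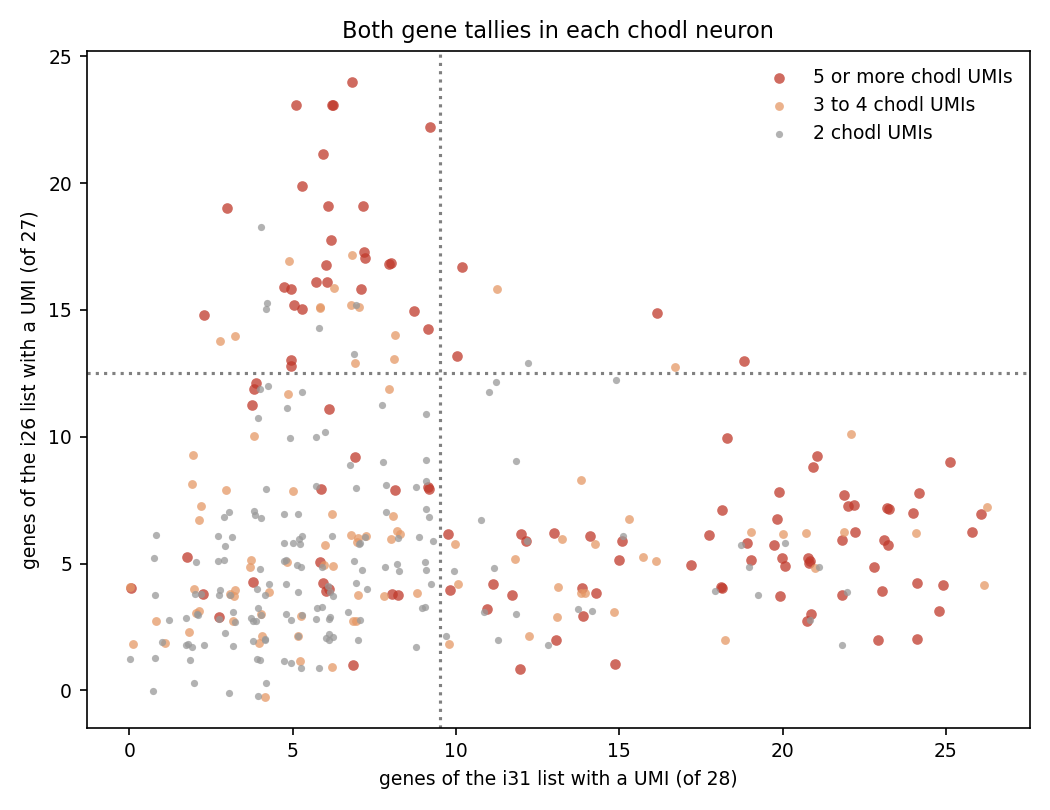
Number of i26-list genes (vertical axis, of 27) against number of i31-list genes (horizontal axis, of 28) detected in each *chodl* neuron, with points moved by up to 0.3 of a gene so that they can be seen, coloured by *chodl* UMIs; dotted lines mark the limits of 10 and 13 genes. Members with 5 or more *chodl* UMIs lay along both axes, and 7 members passed both limits.

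Genes outside both lists also differed between the classes. *gata2a* had a UMI in 68.5% of the i31-rich and 8.70% of the i26-rich members, against 5.05% of microglia-like barcodes. *tal1* went the other way, with 25.2% and 76.1%, against 10.1%. *gata3* was found in both, at 64.9% and 56.5%, as were *emx2*, at 59.5% and 65.2%, and *sox14*, at 39.6% and 60.9%. *dchs1a* was found in 31.5% of i31-rich and 4.35% of i26-rich members, and *calb2a* in 61.3% and 34.8%. *foxp2*, which is on the i31 list, was found in 76.6% and 17.4%.

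The prepronociceptin genes were detected mostly in the i26-rich members. *pnocb* had a UMI in 63.0% of them and *pnoca* in 52.2%, against 1.80% and 6.31% of the i31-rich members. The *pnocb* share of i31-rich members was below that of the microglia-like barcodes, 3.54%, and is read as background. The 71 i26-rich *npy* neurons had *pnocb* in 1 barcode (1.41%), and of the 31 i26-rich barcodes with at least 2 UMIs of both *chodl* and *npy*, 0 had it, which allows a share of up to 9.68%. *gata3* was likewise found in 56.5% of i26-rich members and 15.5% of i26-rich *npy* neurons, while *lhx1a* was found in 63.0% and 71.8%. *tmtopsb* was frequent in both, at 87.0% and 64.8%, and was found in 3.60% of i31-rich members. All these barcodes came from pooled tissue of the same batches, and cells are not replicates.

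The transmitter genes followed the classes. A GABA gene (*gad1b*, *gad2* or *slc32a1*) was detected in 94.6% of i31-rich and 100% of i26-rich members, and in 56.1% of those in neither class. *slc17a6a* or *slc17a6b* was detected in 16.2%, 4.35% and 41.0%. In the 21 members with 5 or more *chodl* UMIs and in neither class, *etv1* was found in 47.6%, *slc17a6b* in 38.1% and *chata* in 28.6%. In the 60 i31-rich members of the same *chodl* count these were 3.33%, 6.67% and 1.67%. GABA genes were the more frequent transmitter genes in those 21 members too, with at least 1 of them detected in 66.7%. *gad2* was found in 47.6% and *gad1b* in 42.9% of the 21, against 81.7% and 63.3% of the 60 i31-rich members.

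**Figure D5:**
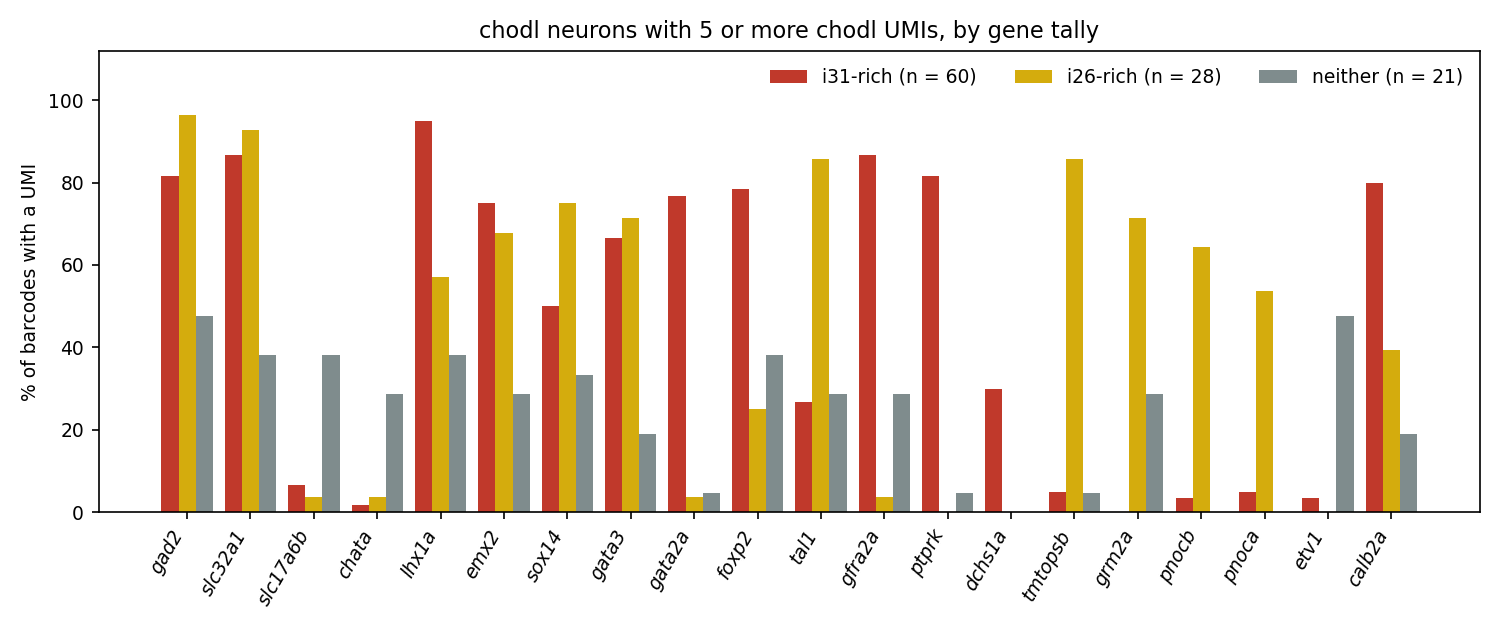
Percentage of barcodes with a UMI of each gene (vertical axis) among *chodl* neurons with 5 or more *chodl* UMIs, in the 60 i31-rich (red), 28 i26-rich (yellow) and 21 neither-class members (grey). *gata2a* and *dchs1a* were frequent in the first, *tal1*, *tmtopsb*, *pnocb* and *pnoca* in the second, and *etv1* and *chata* in the last.

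Within the *chodl* neurons, 7 dpf was also compared with 6 dpf. Only batch 10 gave a 6 dpf pool of at least 10 members, so that age and batch 10 cannot be told apart, and the fit with the sequencer as covariate over 4 batches left 1 residual degree of freedom. By edgeR 84 of 7484 genes (1.12%) were higher at 7 dpf and 213 (2.85%) lower, 3.97% in all, while DESeq2 called 0 higher and 8 lower. Over 8 batches with at least 5 members, 0 of 762 genes were called by edgeR, with 59 at an unadjusted p under 0.05. *pnocb* had 0, 3.18 and 5.03 UMIs per 10000 in 7 dpf batches 8, 11 and 12, against 0.631 in 6 dpf batch 10, so that the single 6 dpf pool lay within the range of the 7 dpf pools.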

How the data were processed

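The authors deposited raw UMI counts per gene and barcode from 10x Genomics 3′ libraries, made per their methods and the submitters' processing notes with Cell Ranger 7.1.0 on the GRCz11 genome. These counts were not normalised. Droplet libraries share free RNA between barcodes, and microglia-like barcodes served as background. These were defined by at least 4 of 10 microglial markers, with members left out. Barcodes were filtered as described for the members, no doublet caller was run, and barcodes with *gad1b* and *slc17a6* UMIs were left out as an alternative. The 12 lanes formed 11 batches, with both lanes of batch 11 summed, and 17 sample records were listed of which 5 had no file of their own. Sequencers were assigned to batches by elimination.

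UMIs were summed per batch and pool where both pools held at least 10 barcodes, and tested with edgeR 4.0.16 (R 4.3.3, TMM, filterByExpr, quasi-likelihood F test, batch as block). The batch pairs the pools because both came from the same library. DESeq2 1.42.0 was the alternative tool. Adjusted p values are Benjamini-Hochberg over all genes tested, with *chodl*, *npy* and *elavl3* left out (and *gad1b* and *gad2* among GABAergic barcodes). The scripts were tested on simulated data. Intervals are exact binomial (95%), the limit for a count of 0 is 3 counts, and shares were compared by exact permutation with Python 3.11.15 and scipy 1.17.1. Nothing in the labels says that batches were separate clutches, so p values refer to batches only. edgeR moderates the variance over genes, and the SE given is the absolute log2 fold change over the square root of F. A small edgeR SE or p value is therefore no proof of like values in every batch, as the *pnocb* and *crhbp* levels show.

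Genes named were all transmitter, neuropeptide and midbrain transcription factor genes past an adjusted p of 0.05, the 15 largest increases and 10 largest decreases (8 and 5 in the comparisons of GABAergic and *npy* neurons) with a UMI in at least 10% of the higher pool and the same direction in every batch, and up to 4 examples of each other list. Not every gene that this rule names is printed. Genes named within the tally classes or by *chodl* count, untested or uncalled genes given for comparison (*nos1*, *tac1*, *tal1*, *gad1b*, *slc32a1*, *slc17a6b*) and *pnocb* between ages were chosen after their values were seen. Members and lists were chosen with earlier results of these data known. No sequences or coordinates were used here.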

Additional observations from a re-analysis of the deposited data

Results flagged for a closer look

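The level of each named gene in the *chodl* pools of batches 8, 10, 11 and 12 was checked for a batch far from the other 3 (Dixon's test). Of 94 groups of values, which included the batch shares of each age, 13 were out of line. Chance gives about 1 in 20 for normally distributed values. Several of the levels rest on few UMIs, so no excess over chance is read from this count. In UMIs per 10000, batch 8 stood apart with high values of *lhx1a* (16.4), *nxph2b* (5.74), *barhl2* (1.44), *ptgdsb.1* (1.44), *cx43* (0.616) and *kcnq5a* (0.410). Batch 10 stood apart for *pou4f2* (1.87), *zgc:171482* (1.81), *sema4ba* (0.387) and *neurod2* (0.0407). Batch 11 stood apart for *crhbp* (3.58), and batch 12 for *htr2cl1* (1.04) and *uts1* (0.0253). Batch 8 held 26 members, the fewest of the 4, and 21 of them were i31-rich. In batches 10, 11 and 12 these were 26 of 119, 20 of 70 and 39 of 122. *lhx1a* and *nxph2b* are on the i31 list, and a link of their levels to the make-up of the pools was not tested.

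*sema5a*, a semaphorin gene, was higher in *chodl* neurons than in other neurons in the 3 batches at 7 dpf and lower in the single batch at 6 dpf, by -0.122 UMIs per 10000. This difference between ages was not tested, and with 1 batch at 6 dpf it cannot be told apart from batch 10.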

How the results depend on the processing

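The number of genes called depended strongly on the fit. Without the replicate block, that is without pairing the pools of a batch, 13 genes were called against other neurons in place of 390, 33 in place of 403 among GABAergic barcodes and 56 in place of 396 against *npy* neurons. DESeq2 called 164, 194 and 246, of which the higher and lower calls were 105 and 59, 107 and 87, and 93 and 153. With the nearest-depth comparators 233 and 253 were called, and 199 of the 233 were among the 390. This alternative could not be applied to *npy* neurons, whose pools held too few barcodes. With at least 3 *chodl* UMIs the counts were 718, 622 and 236, and with at least 5, a choice added after seeing the data, 1068, 825 and 261. With 5 barcodes per pool they were 267 among GABAergic barcodes and 118 against *npy* neurons. Leaving out 1 batch gave 148 to 574 calls against other neurons (148 without batch 12, 164 without batch 11), 145 to 521 among GABAergic barcodes (145 without batch 12, 148 without batch 11, 195 without batch 10) and 125 to 609 against *npy* neurons (125 without batch 11, 179 without batch 12, 249 without batch 10, 609 without batch 8). For 7 dpf against 6 dpf within *chodl* neurons, 297 calls became 187 without a filter on low counts, 8 with DESeq2, 42 without the covariate, 98 with at least 3 *chodl* UMIs, 0 with 5 barcodes per batch and 161 without batch 8. Leaving out batches 10, 11 or 12 could not be fitted. The single genes that changed sign were *crhbp* against other neurons (-1.52 with DESeq2 and -3.04 without batch 11) and, against *npy* neurons, *sox6* (-0.67 with at least 3 and -0.72 with at least 5 *chodl* UMIs), *ebf1b* (-0.65) and *ebf3a* (-0.44), both with at least 5. The difference in share between 7 dpf and 6 dpf ran from 0.0577 to 0.384 percentage points without each batch in turn. The cause of these shifts was not tested.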

Other observations

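A further 60 barcodes past the filters had at least 2 *chodl* UMIs and no *elavl3* UMI. They were shallow, with a median of 1212 UMIs, and 78.3% had a *gad1b*, *gad2* or *slc32a1* UMI and 10.0% an *slc17a6a* or *slc17a6b* UMI. Among members with *elavl3* these shares were 73.7% and 28.5%.

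Markers of other tectal populations were counted in the *chodl* neurons. At least 2 UMIs were found in 21 members for *pou4f1* (5.69%, against 5.61% of the other neurons), 19 for *itpr1b* (5.15%, against 3.01%), 14 for *atf5b* (3.79%, against 4.39%) and 1 for *cort* (0.271%, against 1.13%). For *INSM2*, *npb*, *uts1* and *bhlhe23* the count was 0 of 369, which allows a share of up to 0.813%. The other neurons had 0.469%, 0.686%, 0.331% and 0.424%, all below that limit, so these counts of 0 do not set the members apart.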
